A study of Mus musculus with 16 samples.

Results

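The 4 input libraries of a ChIP-seq series on mouse small-intestinal crypts were compared with each other, KO_input against WT_input, once in the H3K9me3 experiment and once in the H3K9me2 experiment. They were chosen by their labels as inputs and make up 4 of the 16 libraries, the other 12 being H3K9me3 and H3K9me2 ChIP libraries from 3 WT and 3 KO replicates for each mark. KO mice lack Smarcad1, a chromatin remodelling enzyme, in the intestinal epithelium: they carry the Vil-Cre transgene and a floxed Smarcad1 gene (Smarcad1 fl/fl), and the floxed line came from 1 targeted embryonic stem cell clone. WT mice are labelled wild type. All 4 libraries came from male C57BL/6 mice, and from crypts that were fixed with formaldehyde and sonicated before any antibody was added. Whether an input held 1 mouse or a pool, whether the WT mice carried floxed alleles, and the age of the mice are not given in the sources used here. The Vil1 promoter of the transgene drives Cre in epithelial cells, so other cells of the crypt isolate keep Smarcad1.

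An input library is sheared chromatin that is sequenced without immunoprecipitation. Its reads follow the number of copies of a stretch of DNA in the cells, the number of copies the assembly holds of it, and how readily it is sheared, amplified and mapped. An added transgene, a deletion or a collapsed repeat array therefore shows in the input, and a ChIP read count over the same stretch starts from that background. In bulk chromatin, a change of copies in every cell and a larger change in some of the cells cannot be told apart.

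The H3K9me3 table held 8838386 WT input reads and 8452186 KO input reads over 212313 peaks, with a median of 30 and 29 reads per peak. The H3K9me2 table held 11716581 and 12365259 reads over 47065 regions, with medians of 101 and 107. Smarcad1 had no peak or region in its gene or within 5 kb of it, so the deletion could not be read from these inputs. Every ratio below is log2 of KO over WT after scaling each library to its total of reads in peaks or regions (RPM), with an exact (Clopper-Pearson) 95% interval that covers counting error only, since each genotype had 1 input library per experiment and no replicate check was possible within an experiment.

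The inputs of the 2 experiments were not the same reads counted again. Over 144 pairs of a peak and a region that shared at least 95% of their length, the 2 WT inputs had equal read counts in 4.17% of pairs, and their counts differed with a chi-square of 1.17 per degree of freedom. For the 2 KO inputs the same value was 1.04, so over these features the libraries of a genotype differed by about sampling noise. They served as 2 input pairs, and the features that both tables cover show where the pairs moved alike or apart.

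The 3 sequences shown next lie in or beside peaks that the results turn on. The Vil1 and Mt1 promoters are shown because the peak over the one and the peak just after the other had the highest lower interval bounds of the KO over WT input ratio. The repeat unit was cut from a densely read peak on chromosome 9. It is shown because its words occur in 3 of the 5 most densely read peaks, that peak included. They also occur in the chromosome 11 peak whose ratio had the lowest upper interval bound. They were read from RefSeq, build GRCm38.p6. In both promoters capitals mark the dinucleotide CG, which reads the same on either strand. In the repeat unit, capitals mark bases that lie in words of 12 letters also found in a peak on chromosome 11. The Vil1 promoter (chr1:74409134-74409375, plus strand) lay inside its peak, and the Mt1 promoter (chr8:94178839-94179081, plus strand) ended 69 bases before its peak. The repeat unit lies at chr9:35305140-35305373.
Vil1 promoter: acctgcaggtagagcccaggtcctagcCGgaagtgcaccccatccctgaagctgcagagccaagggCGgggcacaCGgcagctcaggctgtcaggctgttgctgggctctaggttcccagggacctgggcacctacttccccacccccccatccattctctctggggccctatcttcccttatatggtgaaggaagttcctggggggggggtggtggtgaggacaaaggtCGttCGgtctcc
Mt1 promoter: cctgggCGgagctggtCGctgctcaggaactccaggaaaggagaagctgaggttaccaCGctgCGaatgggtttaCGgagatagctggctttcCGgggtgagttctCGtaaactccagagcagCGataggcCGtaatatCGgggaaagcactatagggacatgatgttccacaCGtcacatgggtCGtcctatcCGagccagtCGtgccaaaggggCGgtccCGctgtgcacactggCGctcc
Repeat unit: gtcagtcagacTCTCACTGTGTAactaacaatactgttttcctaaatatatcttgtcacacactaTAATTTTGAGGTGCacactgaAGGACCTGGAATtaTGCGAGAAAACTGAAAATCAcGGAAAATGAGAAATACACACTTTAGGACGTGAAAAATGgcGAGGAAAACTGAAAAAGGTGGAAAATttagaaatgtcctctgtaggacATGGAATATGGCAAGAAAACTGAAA
The Vil1 promoter held 5 CG dinucleotides and the Mt1 promoter 17. Over 32851 RefSeq promoter windows of 242 bases the median was 5, and 91.7% held at least 1.

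Vil1, which encodes villin, an actin-bundling protein of the brush border, had the highest lower interval bound of the ratio among peaks with at least 40 reads. The peak chr1:74401801-74415300 had 296 reads in the WT input and 3288 in the KO input of the H3K9me3 experiment. This is a ratio of 3.54 (3.37 to 3.71), or 11.6-fold. The peak reaches over 7575 bases before the Vil1 start and the first 5925 bases of the gene, and it was the only peak in its 100-kb bin. The GC-corrected ratio was 3.33. The H3K9me2 table had no region there, so the second input pair gave no value.

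The H3K9me3 ChIP libraries did not enter the input ratio. At the same peak their deposited log2 values were 5.50, 5.57 and 5.37 in the WT replicates and 12.34, 11.97 and 12.21 in the KO replicates. The means differed by 6.69. Peaks were called on all ChIP libraries together, so a peak this low in WT can be in the table through the KO libraries alone, and no test of the difference is given. The ChIP and input differences are on different scales, because the ChIP values were matched in distribution, so they are given side by side. How much of the ChIP difference goes with the input was not tested.

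Mt1 encodes metallothionein 1, a small metal-binding protein. Its peak, chr8:94179151-94180650, had 40 reads in the WT input and 302 in the KO input, a ratio of 2.98 (2.50 to 3.49), and covers 1177 bases of the gene. Mt2, Mt3 and Mt4 lie in the same 100-kb bin, in which no other peak was called. In the H3K9me3 ChIP the WT values were 2.53, 2.43 and 2.25 and the KO values 9.82, 10.37 and 10.37. The means differed by 7.78, and as at Vil1 no test is given, since the peak can be in the table through the KO libraries alone. The H3K9me2 table had no region at Mt1.

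Bglap3 is a homolog of the bone matrix protein osteocalcin, and its peak had 92 WT and 97 KO input reads. Its ratio of 0.14 had an interval that included 0 (-0.29 to 0.57). Of the 6 genes listed as targets and transgene parts, only Vil1, Mt1 and Bglap3 had a peak, and none had an H3K9me2 region.

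Across all peaks, large input ratios were rare and rested on few reads. With at least 40 reads over both inputs, 148434 peaks were compared, of which 874 (0.589%) were at least 2-fold higher in the KO input and 1293 (0.871%) at least 2-fold lower, 2167 in all (1.46%). With the GC trend taken off, 621 were higher and 851 lower. Of 41142 H3K9me2 regions, 67 (0.163%) were at least 2-fold higher and 68 (0.165%) at least 2-fold lower, 135 in all (0.328%). Among features past 2-fold, 97.6% of the peaks and 95.6% of the regions had under 100 reads. The 95% interval excluded a ratio of 1 at 7.0% of peaks and 5.87% of regions.

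Features whose whole interval lay past 2-fold were fewer still. There were 6 peaks with such a gain (0.00404%), 4 peaks with such a loss (0.00269%), no region with a gain and 1 region with a loss (0.00243%), which lay in Cybb. The spread of the ratios was close to counting error in the H3K9me2 pair, at a chi-square of 1.16 per degree of freedom, and 1.34 in the H3K9me3 pair. Among features with at least 200 reads it was 1.19 and 1.95.

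Where peak and region overlapped, the 2 input pairs did not move together. In 24035 regions with at least 40 reads in each experiment, the ratios of the 2 pairs had a Pearson correlation of -0.04, as a description over neighbouring regions that share libraries. Both intervals lay above 0 in 33 regions, both below 0 in 31, and on opposite sides in 118. None of the 24035 regions was past 2-fold in the same direction in both pairs. The region past 2-fold in both, chrX:3225901-3228450 at Gm14331, went from 19 to 51 reads in the H3K9me2 pair and from 49 to 20 in the H3K9me3 pair.

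Gains and losses in bins of 100 kb, which may hold 1 peak or many, were gathered as copy-number-like loci. A 100-kb bin counted when it had at least 100 reads, a log2 ratio of at least 0.5 either way and a 99.9% interval that stayed at least 0.3 from 0, and adjacent bins were joined. This rule was set after the data were seen, so the ratios that chose the loci are a description. It gave 17 loci, 12 from the H3K9me3 pair, 4 from the H3K9me2 pair and 1 from both. In the H3K9me3 pair 14 of 14698 bins were higher (0.0953%) and 2 lower (0.0136%), and in the H3K9me2 pair 5 of 14314 were higher (0.0349%) and 1 lower (0.00699%). With the bound at 0.2 there were 21 loci, and with 0.4 there were 12.

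**Figure D1:**
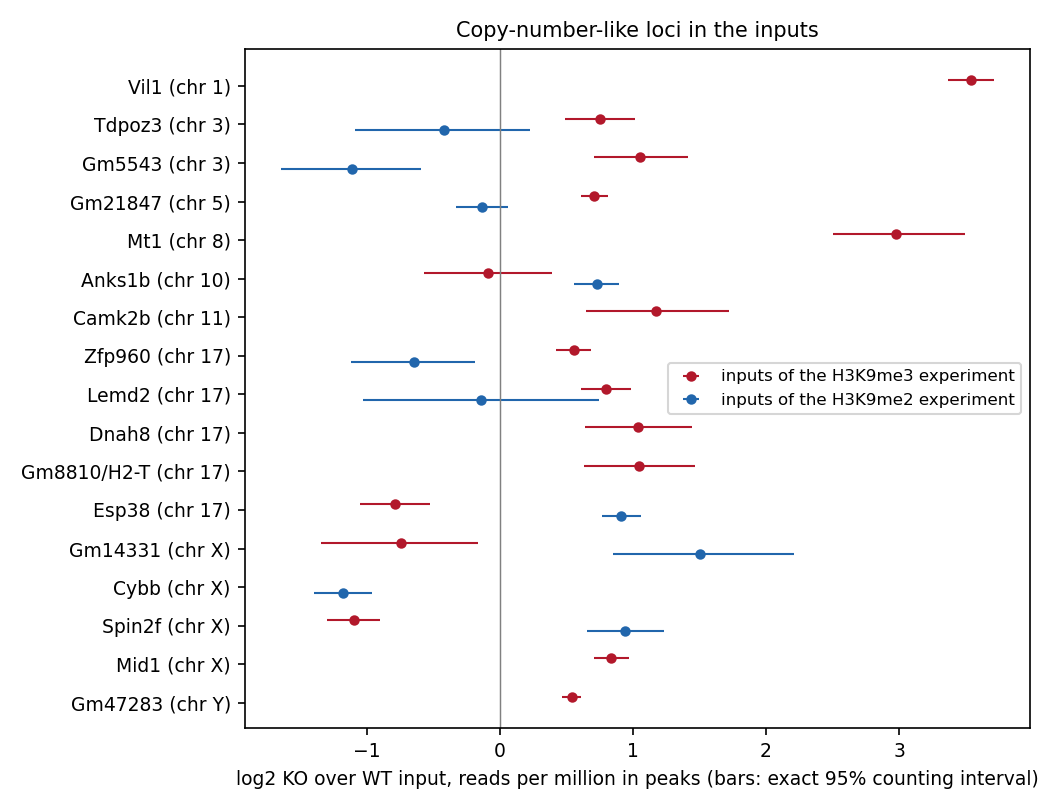
KO over WT input log2 ratio at the 17 copy-number-like loci, with the H3K9me3 pair and the H3K9me2 pair drawn separately and bars for exact 95% intervals (counting error only). Vil1 and Mt1 stand at 3.54 and 2.98, and at the 9 loci measured in both experiments the 2 pairs lie on opposite sides of 0. The pairs are counted over peaks and over regions, which need not cover the same bases.

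At the 9 loci that had reads in both experiments, the 2 pairs had opposite signs in 9 of 9. Within a locus 1 pair was counted over peaks and the other over regions, which need not cover the same bases. At the Esp38 locus these were 26 peaks with a GC content of 44.1% and 8 regions with 36.8%. At 5 of these, named by Gm5543, Zfp960, Esp38, Gm14331 and Spin2f, both intervals excluded 0 in opposite directions. As background, 53.3% of 10943 bins with at least 100 reads in each experiment had opposite signs, with both intervals opposite in 123 bins and alike in 39. The other 8 loci had features in 1 of the 2 tables.

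Anks1b, which encodes a scaffold protein of neuronal synapses, lay in a locus that was higher in the KO input of the H3K9me2 pair. This locus, chr10:89900001-90000000, had 463 WT and 809 KO reads in 2 regions, a ratio of 0.73 (0.56 to 0.90). In the H3K9me3 pair its 3 peaks had 79 and 71 reads (-0.09, -0.57 to 0.39). The H3K9me2 ChIP libraries had 39.7, 67.1 and 69.8 RPM there in WT1 to WT3 and 67.5, 62.1 and 64.7 in KO1 to KO3. WT1 was thus the low library, and the other 5 libraries lay between 62.1 and 69.8.

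Cybb, on chromosome X, encodes a subunit of the NADPH oxidase of phagocytes and lay in the bin that was lower in the KO input of the H3K9me2 pair. Over its 3 regions in chrX:9400001-9500000 the WT input had 545 reads and the KO input 254, a ratio of -1.18 (-1.40 to -0.96). No H3K9me3 peak lay in this bin. In the H3K9me2 ChIP the WT libraries had 48.5, 48.4 and 48.3 RPM and the KO libraries 20.7, 49.6 and 49.4. KO1 alone was low, and the other 5 libraries lay between 48.3 and 49.6.

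The chromosome 17 cluster at 39900001-40100000 holds Esp38, a member of the exocrine gland-secreted peptide family. The H3K9me2 inputs had 581 WT and 1155 KO reads (0.91, 0.77 to 1.06), and the H3K9me3 inputs had 344 and 191 (-0.78, -1.05 to -0.53). H3K9me2 ChIP RPM were 51.4, 108 and 107 in the WT libraries and 110, 108 and 63.6 in the KO libraries. WT1 and KO3 were low, and the other 4 lay between 107 and 110. In the H3K9me3 ChIP the library WT3 stood at its lowest recorded value in 25 of the 26 peaks, with a median of 0.95 against 3.18 to 4.28 in the other 5 libraries.

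Spin2f and Btbd35f29 belong to a repeated gene cluster on chromosome X, at 31100001-31300000. This locus met the rule in both experiments, and in opposite directions: the H3K9me3 inputs went from 666 to 298 reads (-1.10, -1.30 to -0.90) and the H3K9me2 inputs from 150 to 304 (0.94, 0.65 to 1.23). The H3K9me2 ChIP had 18.1, 21.7 and 13.1 RPM in WT and 27.5, 26.9 and 13.8 in KO, and the groups overlapped. In the H3K9me3 ChIP, WT1 was at 10.03 and the other 5 libraries lay between 9.02 and 9.08, as log2 of the summed values. The locus of the unnamed gene model Gm14331, chrX:3200001-3300000, also moved apart, from 70 to 40 reads in the H3K9me3 inputs (-0.74, -1.34 to -0.16) and from 26 to 78 in the H3K9me2 inputs (1.51, 0.85 to 2.21).

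**Figure D2:**
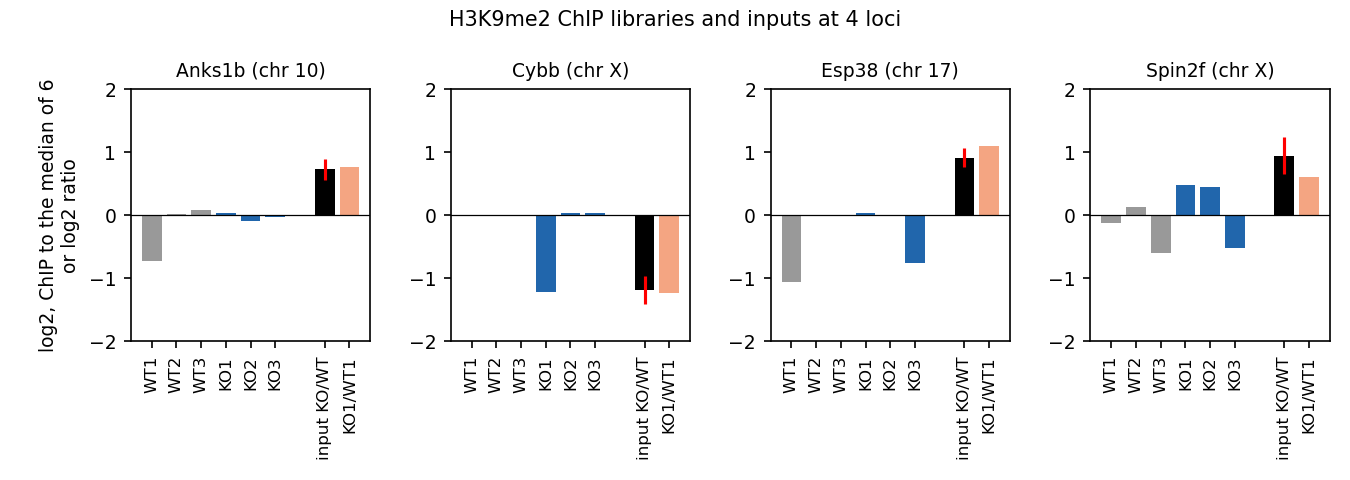
H3K9me2 ChIP RPM in each WT and KO library, as log2 relative to the median of the 6 libraries, at the Anks1b, Cybb, Esp38 and Spin2f loci, beside the KO over WT input ratio with its 95% interval and the ratio of KO1 over WT1. WT1 is low at Anks1b, KO1 is low at Cybb, and WT1 and KO3 are low at Esp38.

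The H3K9me2 input ratios at the loci were closest to the ratio of 1 ChIP replicate pair. Over the 10 loci with H3K9me2 regions, the KO1 over WT1 ChIP ratio had the sign of the input ratio in 10 of 10 loci, with a root mean square distance of 0.15 on the log2 scale. For the other 8 combinations of a KO and a WT replicate this distance was 0.49 to 1.37. Their signs were those of the input ratio in 9 of 10 loci for KO2 over WT1, down to 0 of 10 for KO3 over WT2. Over 1758 bins of 1 Mb, the input ratio had a Pearson correlation of 0.50 with KO1 over WT1, 0.40 with KO2 over WT1, 0.38 with KO3 over WT1, and -0.24 to -0.01 with the others. The bins share libraries and the 9 combinations share replicates. For H3K9me3, the distance ran from 0.99 to 1.86 over 14 loci, Vil1 and Mt1 being left out, and no combination stood apart. Which mice the inputs came from was not tested.

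**Figure D3:**
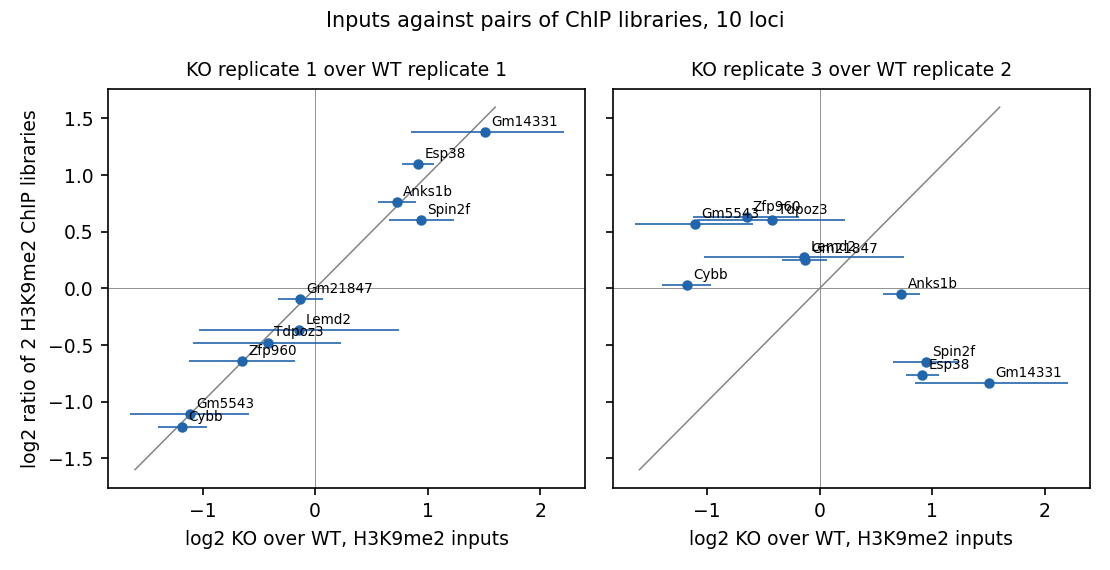
H3K9me2 input log2 ratio (KO over WT) at 10 loci plotted against the H3K9me2 ChIP log2 ratio of KO1 over WT1 and of KO3 over WT2, with the line of equality. These are the closest and the farthest of the 9 combinations of replicates. The KO1 over WT1 points follow the line, with a root mean square distance of 0.15, and the KO3 over WT2 points lie on the opposite side of 0 in 10 of 10 loci.

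A group of loci on chromosome 17 had more reads in the KO input of the H3K9me3 pair. The locus with Lemd2, which encodes an inner nuclear membrane protein, went from 378 to 628 reads (0.80), and the one with Dnah8, a dynein of the sperm flagellum, from 79 to 155 (1.04). Near the H2-T genes, which encode non-classical major histocompatibility proteins, reads went from 74 to 146 (1.04), with Gm8810 at 23 and 65. The locus with Zfp960, a zinc finger gene, had 814 and 1145 reads in all its peaks (0.56, 0.43 to 0.69), against 98 and 66 in the H3K9me2 pair (-0.65, -1.12 to -0.18).

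Further gains of the H3K9me3 pair lay on chromosomes 3, 5 and 11. Near Tdpoz3, a member of a repeated family of BTB-domain genes, reads went from 198 to 319 (0.75, 0.49 to 1.02), against 47 and 37 in the H3K9me2 pair. Near Gm5543 they went from 102 to 203 (1.06, 0.71 to 1.42), against 96 and 47 in the H3K9me2 pair (-1.11, -1.64 to -0.59). At chr5:15400001-15600000, where Gm21847 lies, reads went from 1323 to 2068 (0.71), while the H3K9me2 pair had 431 and 415 (-0.13, -0.33 to 0.07). The locus with Camk2b, which encodes a calcium/calmodulin-dependent kinase subunit, had 44 and 95 reads (1.17, 0.64 to 1.72).

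At the ends of the sex chromosomes, Mid1 and Gm47283 were both higher in the KO input of the H3K9me3 pair. Mid1 encodes a ubiquitin ligase and crosses the border of the pseudoautosomal region in C57BL/6 mice. Its locus, chrX:169900001-170000000, had 759 WT and 1298 KO reads (0.84, 0.71 to 0.97). The Gm47283 locus, chrY:90700001-90900000, had 2814 and 3912 reads (0.54, 0.47 to 0.61). After GC correction the ratios were 0.67 and 0.40. The H3K9me2 table had no region in either, and in the H3K9me3 ChIP the WT and KO values overlapped at both.

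The ChIP libraries were tested at the loci with fits over all features of each table. Of 141 H3K9me3 peaks in the loci, and aside from Vil1 and Mt1, for which no test is given, 2 were called higher in KO and 15 lower by limma at an adjusted p under 0.05. Over all peaks 0.252% were called higher and 2.46% lower. Peaks of 1 locus share their background, so they are not independent. The 2 higher peaks lay at Esp38, where WT3 stood at its lowest value, and neither was called without WT3 or without KO2. The 15 lower peaks lay in the loci near Gm5543 (6), Lemd2 (5), Tdpoz3 (2), Dnah8 (1) and the H2-T genes (1), all with more KO than WT reads in the H3K9me3 inputs. The lower calls were 10 to 17 with 1 library left out, the fewest without WT1 or WT3. The higher calls, with Vil1 and Mt1 counted, were 4 from all libraries. They were 2 to 11 with 1 library left out, the most without WT2. By limma without a trend in the variance none of the 17 peaks was called, while over all peaks the calls went from 536 higher and 5226 lower to 16 and 87.

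Of the 34 H3K9me2 regions in the loci, edgeR called none in either direction, against 0.0% higher and 0.00212% lower over all regions. At an unadjusted p under 0.05 there were 5 of 34, beside 1470 of 47065 over all regions, and DESeq2 called none of the 34. The smallest adjusted p by edgeR was 1.00, after rounding, at each of the 10 loci with regions, Anks1b and Cybb included.

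The H3K9me3 peak with the lowest upper bound of its ratio lay on chromosome 11. It spans 3099751-3113100, near the start of the assembled sequence, and its reads went from 2093 to 477 reads, a ratio of -2.07 (-2.22 to -1.92). An H3K9me2 region inside it, chr11:3112351-3113100, had 20 and 10 reads. The H3K9me3 ChIP values were 12.34, 9.85 and 9.99 in WT and 9.53, 9.86 and 9.75 in KO, so WT1 stood alone and the groups overlapped. The difference was -1.02 (SE 0.24, limma adjusted p = 0.00699), and without WT1 it was -0.21 (limma adjusted p = 0.233). By limma without a trend the difference from all 6 libraries had an adjusted p of 0.636.

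The peak and 3 of the 5 most densely read peaks of the table held words of the repeat unit printed above. In the chromosome 9 peak at 35305051-35305800 the sequence was most alike to itself at a spacing of 234 bases. At that spacing the identity was 45.0% over the whole peak, and 69.7% between the most alike neighbouring copies. The spacing of 234 bases is the unit length of the mouse major satellite, the repeat of pericentromeric heterochromatin that carries H3K9me3. Words of 12 letters from the unit covered 50.8% of that peak, part of which holds by construction, since the unit was cut from it. They covered 15.4% and 13.9% of the pair of dense peaks at Gm10800 and Gm10801 on chromosome 2, and 8.04% of the chromosome 11 peak. They covered 0% of the other 2 of the 5 densest peaks, on chromosomes 15 and 17. The mean over 2230 sampled peaks was 0.104%, and 9.42% of them held any such word.

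The dense peaks themselves differed little between the inputs. At Gm10800 the peak chr2:98665951-98669550 had 11516 WT and 10847 KO reads (-0.02), and at Gm10801 the peak chr2:98662051-98665800 had 8209 and 7006 (-0.16, -0.21 to -0.12). The chromosome 9 peak had 1579 and 1695 reads (0.17), and a chromosome 15 peak at 75085201-75087300 had 2688 and 2972 (0.21). The chromosome 17 peak at Gm26917 had 9258 and 10016 (0.18, and -0.11 after GC correction). Sfi1, a centrosomal gene whose extra copies are collapsed in the assembly, lay in the most heavily read peak of the table, with 42726 and 47209 reads (0.21, 0.19 to 0.23, and 0.03 after GC correction).

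GC content moved with the H3K9me3 input ratio. Over 5 classes of peaks, from the lowest with a median GC of 34.6% to the highest with 45.5%, the median ratio was -0.22, -0.07, 0.01, 0.09 and 0.18. For the H3K9me2 inputs the same medians ran from 0.02 to -0.04, the opposite direction. The Pearson correlation of ratio and GC was 0.35 over 148434 peaks and -0.07 over 41142 regions, as a description over features of the same libraries.

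**Figure D4:**
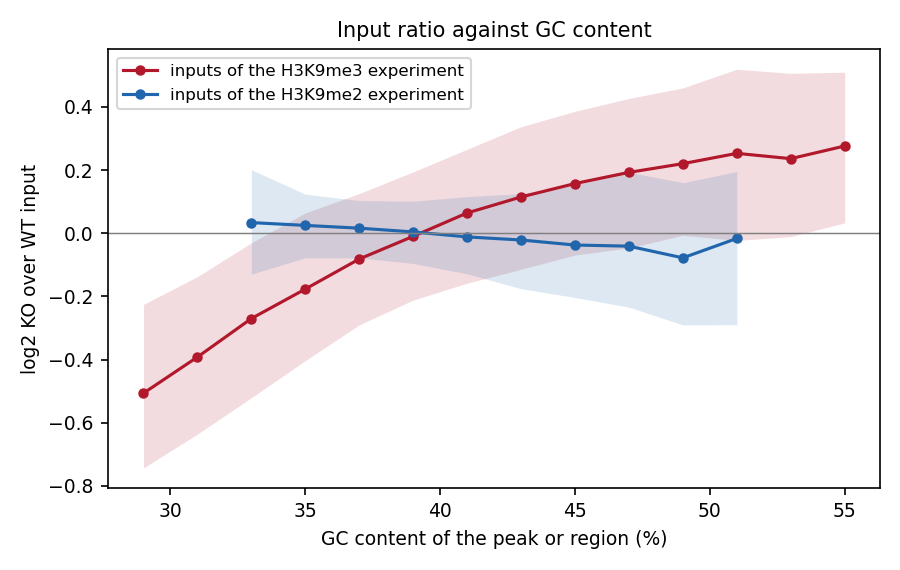
Median KO over WT input log2 ratio per step of 2% GC, for the H3K9me3 and H3K9me2 pairs, with bands from the lower to the upper quartile of the features in a step of at least 100 features. The H3K9me3 medians climb with GC, from -0.22 in the lowest GC class of peaks to 0.18 in the highest, and the H3K9me2 medians fall slightly.

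The same slope was present between the pairs in bins. Over 1504 bins of 1 Mb with at least 1000 reads in each experiment, the 2 pairs had a Pearson correlation of -0.30, and -0.05 after the GC trend was taken off each. The spread of the ratios over these bins fell from an SD of 0.090 to 0.058 in the H3K9me3 pair and from 0.047 to 0.044 in the H3K9me2 pair. With at least 1000 reads asked of 1 experiment only, a ratio past 0.3 was found in 17 of 1825 bins of the H3K9me3 pair. In the H3K9me2 pair it was found in none of 1758 bins.

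By chromosome, the inputs of both genotypes were close to even on the autosomes. The H3K9me3 ratios ran from -0.04 on chromosome 15 to 0.06 on chromosome 11. After GC correction chromosome 15 stood apart at -0.04, and the other autosomes lay between -0.01 and 0.01. The H3K9me2 ratios ran from -0.11 to 0.02, with 18 of 19 autosomes within 0.06 of 0.

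Chromosome 19 was the exception in the H3K9me2 pair. It took 1.76% of the WT input reads and 1.63% of the KO input reads, a ratio of -0.11 (-0.12 to -0.10), and -0.11 after GC correction. In bins of 5 Mb along the chromosome, 13 of 13 were below 0, from -0.19 to -0.07. In the H3K9me3 pair the chromosome stood at 0.02, and at -0.01 after GC correction. The H3K9me2 ChIP libraries had 1.83%, 1.79% and 1.81% of their reads on chromosome 19 in WT and 1.69%, 1.80% and 1.79% in KO, so KO1 was the low library there too. In the H3K9me3 ChIP, log2 values of chromosome 19 peaks were set against their mean over all libraries and against all autosomes. The mean deviations were 0.080, 0.007 and 0.026 in WT and -0.064, -0.016 and -0.033 in KO. KO1 was the lowest, and the groups did not overlap. This difference was not tested.

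**Figure D5:**
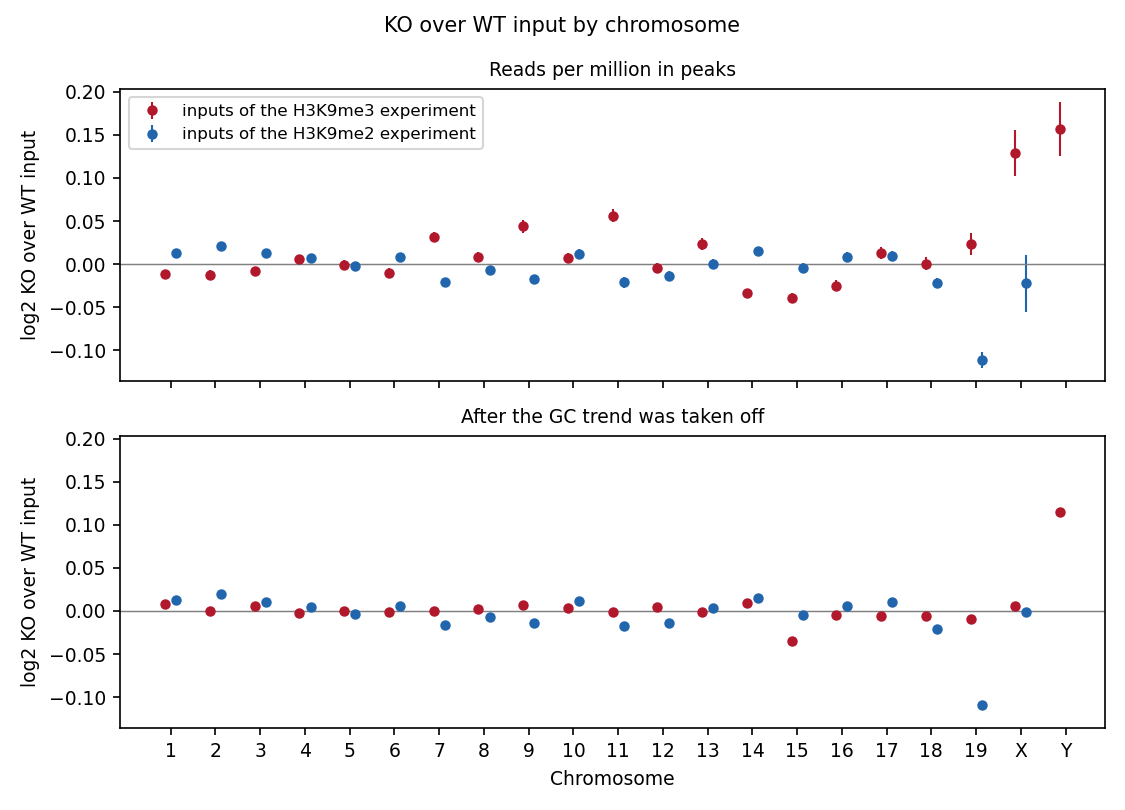
KO over WT input log2 ratio of the summed reads of each chromosome in the H3K9me3 and H3K9me2 pairs, before (with exact 95% intervals for counting error) and after GC correction. Chromosome 19 stands at -0.11 in the H3K9me2 pair, and X moves from 0.13 to 0.01 in the H3K9me3 pair with the correction.

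On the sex chromosomes the H3K9me3 pair was higher in KO before correction. X had a ratio of 0.13 (0.10 to 0.16), and 0.01 after GC correction. Y had 0.16 (0.13 to 0.19), 0.11 after GC correction and 0.07 without the 1% densest peaks. In the H3K9me2 pair X had -0.02 (-0.06 to 0.01), and Y had a single region. The median read density of X peaks relative to autosomal peaks was 0.62 in the WT and 0.67 in the KO input of the H3K9me3 experiment, and 0.72 and 0.78 in the H3K9me2 experiment. In the H3K9me2 ChIP, X took 0.198% ± 0.0077 of reads in WT and 0.228% ± 0.0369 in KO (SD, n = 3 each), with KO3 at 0.270% and the other 5 libraries between 0.192% and 0.212%. The exact permutation test gave a two-sided p of 0.2, and 3 against 3 libraries cannot go below 0.1, so no difference could have passed 0.05.

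The 4 inputs were also fitted together by edgeR, with experiment as a block, to ask which bins differed between 2 KO and 2 WT inputs. Of 2376 bins of 1 Mb, 3 were higher (0.126%) and 2 lower (0.0842%). The higher bins were those of Mid1 on X (795 to 1331 reads in the H3K9me3 pair, 32 to 35 in the H3K9me2 pair, adjusted p = 5.96e-10), of Gm21847 on chromosome 5 (2648 to 3791, 2094 to 2183, adjusted p = 3.11e-07) and of Lemd2 on chromosome 17 (923 to 1330, 24 to 23, adjusted p = 5.74e-05). The lower bins were those of Cybb (218 to 195, 573 to 272, adjusted p = 1.25e-09) and a bin at 143 Mb of X (424 to 275, 28 to 30, adjusted p = 0.0439). In each of the 5, a single pair carried the difference. The fit leaves 1 residual degree of freedom per bin, with the spread moderated over all bins, so these p-values say little on whether the 2 pairs agree. DESeq2 called none of the bins, with 3 at an unadjusted p under 0.05. The Vil1 bin could not enter, as it had no H3K9me2 reads.

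The same fit over 26777 overlapping regions called 1 region higher (0.00373%) and 1 lower (0.00373%). The higher region lay in Anks1b, with 309 and 638 reads in the H3K9me2 pair and 60 and 44 in the H3K9me3 pair (edgeR adjusted p = 9.16e-06). The H3K9me3 pair thus went the other way. As for the bins, the p-values of this fit say little on whether the 2 pairs agree at a region. The lower region was that of the chromosome 11 peak (edgeR adjusted p = 1.81e-97), with 2093 and 477 reads in the H3K9me3 pair. Its H3K9me2 pair, 20 and 10 reads, pointed the same way but was under the minimum of 40 reads. DESeq2 called none, with 2 at an unadjusted p under 0.05.

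The input was also read at the peaks that the H3K9me3 ChIP called. At the 5226 peaks called lower in KO, the summed H3K9me3 input ratio was 0.08 (0.08 to 0.09), and -0.00075 after GC correction. At the 536 peaks called higher, which include Vil1 and Mt1, it was 0.23 (0.21 to 0.25), and 0.11 after GC correction. The median over these peaks, which those 2 do not carry, was 0.13, and 0.03 after GC correction. Both classes depend on the fit, as limma without a trend called 87 and 16 peaks. At peaks not called it was -0.0041. In the H3K9me2 inputs the regions over these 3 classes had ratios of -0.02, -0.01 and 0.00062. The called peaks were richer in GC, with a median of 42.8% and 43.2% against 39.4% for peaks not called.

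Genes described with gained H3K9me3 in KO crypts were chosen on the ChIP libraries, so their ChIP is no independent measure here. The 10 genes held 219 peaks with at least 40 reads, at a median input ratio of 0.16, or 0.02 after GC correction, and 29 regions at 0.04. None was past 2-fold, beside 1.46% of all peaks and 0.328% of all regions. Tiam1, an exchange factor for the GTPase Rac, had 6551 and 7409 reads over its peaks (0.24). Grip1, a synaptic scaffold, had 9414 and 9914 (0.14), and Arl15 5885 and 6142 (0.13). Fat1, an atypical cadherin, had 1276 and 1421 (0.22), Tcf4, a transcription factor, 1354 and 1446 (0.16), and Tlr2, a receptor for bacterial lipoproteins, 71 and 87 (0.36, -0.11 to 0.83).

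Genes known to vary in copy number between C57BL/6 colonies were looked at for strain differences. Of 45 peaks with at least 40 reads 1 was 2-fold higher and 1 lower, beside 1.46% past 2-fold over all peaks, at a median ratio of -0.06, and none of 7 regions was past 2-fold. Skint4 had 894 and 854 reads over its peaks (-0.00, -0.14 to 0.14), and 1273 and 1272 over its regions (-0.08, -0.19 to 0.03). Ide, an insulin-degrading protease, had 38 and 26 (-0.48, -1.26 to 0.27), and Nnt, a mitochondrial transhydrogenase, 31 and 30 (0.02, -0.76 to 0.79). Of the 10 collapsed multi-copy genes, Sfi1 and Mid1 had peaks, and 1 of 7 peaks was 2-fold higher.

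Antigen receptor segments, parts of which lymphocytes cut out of their DNA, gave no input difference beyond counting error in the peaks. The V, D and J segments had a summed ratio of -0.02 (-0.07 to 0.04) over 121 peaks and -0.02 (-0.03 to 0.00) over 130 regions. Of the 75 peaks and 129 regions with at least 40 reads none was past 2-fold, beside 1.46% of all peaks and 0.328% of all regions. Crypt and epithelial genes such as Lgr5 and Olfm4 were mostly without features. Of the 15 listed, 2 had peaks, at a median of 0.17 over 12 peaks, or 0.02 after GC correction, and 2 had regions, at 0.01 over 7 regions. Inputs carry no expression, so the labelled tissue could not be checked by markers here.

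Tandem gene families, which often differ in copy number between mice, stayed near 0 in most cases. Olfactory receptor genes (Olfr) had a median ratio of -0.11 over 899 peaks, or -0.02 after GC correction, with 2 peaks 2-fold higher and 8 lower, beside 0.589% and 0.871% over all peaks, and 0.01 over 562 regions. Vomeronasal genes had -0.03 (Vmn1r, 116 peaks) and -0.07 (Vmn2r, 395 peaks, 1 higher and 9 lower), and after GC correction 0.02 and 0.005. Zinc finger genes (Zfp) had 0.05 over 618 peaks, with 5 lower and none higher beside the same shares over all peaks, and -0.00 after GC correction. The epidermal Skint genes had -0.06 over 245 peaks and 0.06 over 59 regions.

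The smaller families were read over few features. The medians over peaks were -0.03 for the defensins (Defa, 1 peak), 0.21 for the major urinary proteins (Mup, 1 peak), 0.19 for the natural killer receptors (Klra, 10 peaks), 0.08 for the cytochromes P450 (Cyp, 73 peaks) and 0.19 for the glucuronosyltransferases (Ugt, 13 peaks). Over regions, they were 0.05, -0.04, 0.06, -0.04 and 0.01 in the same order. Beside 0.589% of all peaks higher and 0.163% and 0.165% of all regions higher and lower, 1 peak and 1 region of the Cyp genes were 2-fold higher and 1 region was lower, and in the other 4 families none was past 2-fold. In Vmn1r, 1 peak was higher and 1 region lower.

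The remaining features at the extremes rested on few reads. Ordered by the lower bound of the interval, the peak after Mt1 lay in Kcnt2, a potassium channel gene, with 7 and 36 reads (2.43, 1.24 to 3.84), where the H3K9me3 ChIP values of the groups overlapped. Ordered by the upper bound of the interval, the peak after that on chromosome 11 was chrX:31231801-31233450 in the Spin2f locus, with 100 and 27 reads (-1.82, -2.50 to -1.20), followed by chr13:22156651-22158750 with 42 and 9 (-2.16, -3.38 to -1.10) and by the Skint2 peak with 61 and 16 (-1.87, -2.76 to -1.05). In the H3K9me2 pair, Cntn4, a neuronal adhesion gene, had 8 and 32 reads (1.92, 0.77 to 3.25). At these 5 features the ChIP groups overlapped, and no adjusted p was under 0.05 by limma or edgeR. The groups did not overlap at 3 other peaks of these extremes. Near Gm6309, at chr5:146174251-146175600, reads went from 13 to 47 in the inputs while the H3K9me3 ChIP difference, KO minus WT, was -0.74 (SE 0.20, limma adjusted p = 0.0293). At chr11:96182401-96183600 and chr8:54909601-54910650 the limma adjusted p was 0.307 and 0.129.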

How the data were processed

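The authors trimmed the paired-end reads with Trim Galore 0.4.4, mapped them to GRCm38 with Bowtie2 2.3.2, removed duplicates, kept reads over a mapping quality limit in SeqMonk, and called MACS peaks on the ChIP libraries of a mark against both inputs. In the deposited H3K9me3 table the authors gave log2 values: read counts with a lower limit of 1 for the inputs, and counts matched in distribution for the ChIP libraries. In the deposited H3K9me2 table the authors gave the mean signal per MACS peak for 47065 regions that group 179733 MACS peaks, from which the counts of each region were recovered by multiplying with the number of peaks. At 363 WT and 355 KO input values the H3K9me3 table stands at its limit of 1 read, where 0 and 1 cannot be told apart. The 8 columns of standard deviations and the adjusted p-values of the authors' own edgeR comparisons were not used. The counts in the H3K9me2 table of those comparisons served only to check the unit, and the H3K9me3 one was not used.

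Input counts were scaled to the total in peaks or regions (RPM), compared at a minimum of 40 reads, and given exact 95% intervals. The GC correction subtracted a loess curve (span 0.3) of the ratio on GC. The 4 inputs were tested with edgeR 4.0.16 (quasi-likelihood, TMM, experiment as block), the H3K9me2 ChIP with edgeR and the H3K9me3 ChIP with limma 3.58.1 on the log2 values, with Benjamini-Hochberg adjustment over all features. DESeq2 1.42.0, other minima, folds, bins and scalings, and left-out replicates were the alternatives. Scripts ran in R 4.3.3 and Python 3.11.15 (SciPy 1.17.1, statsmodels 0.14.6), with GENCODE M21 genes, and were tested on simulated data. Replicates are separate samples by their labels, and the authors call the ChIP replicates biological. Whether each is a mouse of its own is not stated in the sources used here, so p-values of the ChIP fits measure the spread between these samples. Those of the 4 inputs rest on 1 residual degree of freedom per feature, moderated over all features.

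Features were named when they had the 10 highest lower or 10 lowest upper interval bounds of a table (1 per 1-Mb bin), the 5 highest read densities, or most reads in a listed gene. The lists were transgene and target genes, genes described with gained H3K9me3, C57BL/6 colony genes, collapsed genes, antigen receptor segments, 10 gene families and crypt genes. The members and lists were chosen with earlier results of these data known.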

Additional observations from a re-analysis of the deposited data

Results flagged for a closer look

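At 5 loci the 2 input pairs moved in opposite directions, and the item flagged is the H3K9me2 input log2 ratio minus the H3K9me3 input log2 ratio. The pairs were counted over regions and over peaks, which need not cover the same bases of a locus. This difference was -2.17 near Gm5543 (chromosome 3), -1.21 near Zfp960 (chromosome 17), 1.70 at the Esp38 locus (chromosome 17), 2.25 at Gm14331 (chromosome X) and 2.04 at the Spin2f locus (chromosome X). On chromosome 19 as a whole the difference was -0.13. None of these differences was tested, since each experiment had 1 input library per genotype. Over all bins of 100 kb with at least 100 reads in each experiment, 123 of 10943 had intervals on opposite sides of 0.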

How the results depend on the processing

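The number of peaks past 2-fold in the H3K9me3 inputs, 2167 (40.3% of them higher), was 11357 with no minimum of reads (45.7% higher), 52 with a minimum of 100 reads (34.6% higher), 17623 at 1.5-fold and 12 at 4-fold. For the H3K9me2 regions it was 135, and 1118, 6, 1399 and 0 under the same settings. With the GC trend taken off, the H3K9me3 input ratio of chromosome 19 changed sign to -0.00897, that of X fell to 0.0056 and that of Y to 0.11, and Y was at 0.065 without the 1% densest peaks. The 5 called bins of 1 Mb became 0 in bins of 5 Mb and 0 by DESeq2, while the H3K9me3 pair alone had 17 bins past 0.3 and the H3K9me2 pair alone 0. The 2 called overlapping regions became 1 when at least 50% of a peak had to lie in the region, 1 with at least 40 reads in each experiment and 0 by DESeq2. The 19 H3K9me3 ChIP calls at the loci, Vil1 and Mt1 included although no test is read there, were 2 by limma without trend and 12 to 28 when 1 replicate was left out (12 without WT3), and for the H3K9me2 ChIP they were 0 to 0. Of the alternatives for single loci, chosen after seeing the data, the GC correction moved 3 of 26 locus ratios out of their interval (Vil1 to 3.33, Mid1 to 0.67 and Gm47283 to 0.40), and the other scalings shifted all ratios alike by at most 0.0028.

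Replicate numbers did not pair the ChIP samples: deviations from the group means correlated at -0.015, 0.009 and -0.014 between same-numbered H3K9me3 libraries. In the H3K9me2 libraries the 3 correlations were 0.18, 0.016 and 0.078. With the replicate block, 19 H3K9me3 peaks, again with Vil1 and Mt1, and 2 H3K9me2 regions were called at the loci, so the block moved the H3K9me2 calls from 0 to 2. Over all features that fit called 534 peaks higher and 5218 lower of 212313, and 2 regions higher and 15 lower of 47065. Depth limits single peaks, at a median of 30 reads in the H3K9me3 WT input.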
